A study of Homo sapiens with 6 samples.

Results

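The genes described here are 43 genes of G2 and mitosis, taken as a list of names: the cyclin and CDK switch that starts mitosis, the mitotic kinases and the spindle checkpoint, the ubiquitin ligase of mitotic exit, the centromere and kinetochore, the spindle, cytokinesis and the mitotic chromosomes. No expression value entered the choice of a probe set other than its mean over all 6 arrays. The list itself was chosen with earlier results of these data known. Of the 43 genes, 41 were measured, among 15277 genes in all, and NUF2 and KIF20B were not analysed here. The arrays compared HFL-1 cells, an established human lung fibroblast line of fetal origin, infected with the GV492 lentivirus carrying HYAL1 with HFL-1 cells infected with the control vector CON335, both in the presence of polybrene. Each group had 3 samples, each read on its own PrimeView array with probes toward the 3' end of transcripts. The study used these cells to ask how HYAL1, an enzyme that cuts hyaluronan, bears on fibroblast proliferation. Replicates are titled as biological, with no account of how they were grown apart in the sources used here, so every error below is the spread between these samples. All cells were of a single line, both groups had received virus, and no uninfected arrays were analysed.

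Cells enter mitosis when cyclin B activates CDK1, and they leave it when the anaphase-promoting complex, a ubiquitin ligase, marks cyclin B and securin for destruction. The genes of this programme are transcribed late in the cell cycle, when the MuvB complex with B-MYB and FOXM1 replaces the repressor complex DREAM, and their promoters often carry the cell cycle genes homology region (CHR) and CCAAT boxes bound by NF-Y. In cultured fibroblasts their transcripts are abundant in dividing cells and scarce in resting cells, which is why MKI67 and TOP2A serve as markers of proliferation.

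HYAL1 itself went against its labels. The HYAL1-labelled arrays read 4.81, 4.82 and 4.67 on the log2 scale and the control-labelled arrays 7.48, 7.49 and 7.46. The control-labelled arrays were thus higher by 2.71 (SE 0.0455, adjusted p = 7.78e-07 with limma). The exact permutation test, two-sided, gave p = 0.1, the smallest that 3 arrays against 3 can give. The labels and the methods call the same 3 arrays HYAL1, whereas the study's table of changed genes heads them as negative control. All 1664 rows of that table held the deposited values within 0.001 under the opposite heading. Every direction below is by label, and under the headings of that table every direction turns. Arrays of a group correlated at 0.9984 to 0.9989 and arrays of different groups at 0.9978 to 0.9982. All 10 fibroblast markers measured lay above the background level defined below in at least 1 group. Of these, 8 were lower in the HYAL1-labelled arrays, 7 of them without overlap, against 10.3% of all genes without overlap in that direction. The other 2, PDGFRA (10.73 against 10.66) and PDGFRB (9.60 against 9.59), were higher there. Of these 2, PDGFRA was without overlap, against 14.1% of all genes in that direction. COL1A1 passed the limma test (11.49 against 11.76, adjusted p = 0.0152), as did 1.21% of all genes on that side. With a prior variance that varies with mean level 5 passed, against 3.89% of all genes on that side. This adds COL1A2, COL3A1, THY1 and LUM (adjusted p from 0.00196 to 0.00961). Of the markers of other cell types, 3 of 6 epithelial, 3 of 4 endothelial and 2 of 4 leukocyte genes were measured. None of these passed, 0 of them at an unadjusted p under 0.05, and PECAM1, CDH5 and VWF (endothelial), SFTPB (epithelial) and CD3E (leukocyte) were near background. KRT19 (8.97 against 8.94), epithelial, and CD68 (7.93 against 7.95), of leukocytes, were not. SFTPC (6.66 against 6.77), also epithelial, lay under the background level of the HYAL1-labelled arrays (6.82) and at that of the control-labelled arrays (6.77). The part of cell makeup in the results below was not tested.

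A single G2 and mitosis gene passed the test between the groups, and all members differed by little, this gene included. AURKA was lower in the HYAL1-labelled arrays, and no member was higher there at an adjusted p under 0.05 (limma, Benjamini-Hochberg over all genes). Called on the control-labelled side was therefore 1 of 41 members (2.44%), against 1.21% of all genes, and on the HYAL1-labelled side 0 of 41 against 0.445%. At an unadjusted p under 0.05, 6 members were higher in the HYAL1-labelled arrays (14.6%, against 9.69% of all genes) and 1 in the control-labelled arrays (2.44% against 7.72%). In bulk RNA, fewer cells in a phase of the cycle and less RNA per cell cannot be told apart.

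By sign alone, 34 of 41 members (82.9%) were higher in the HYAL1-labelled arrays, against 57.3% of all genes. Their values did not overlap between the groups in that direction for 12 members (29.3%, against 14.1% of all genes) and in the other direction for AURKA alone (2.44% against 10.3%). Since the list was chosen with earlier results of these data known, these counts are a description only. The sizes were small. The differences, HYAL1-labelled minus control-labelled on the log2 scale, ran from −0.17 for AURKA to 0.20 for NUSAP1, with a median of 0.05 against 0.01 over all genes. The median absolute difference corresponded to 1.04-fold and the largest to 1.15-fold. Replicate SDs of members ran from 0.00765 to 0.197, with a median of 0.0501 on HYAL1-labelled arrays and 0.0599 on control-labelled arrays, and the median SE of a difference was 0.0477. The typical member thus differed by about the size of its error. Differences in array value of over 1.2-fold in either direction lay outside the 95% intervals of 38 of the 41 members, all but TTK, NUSAP1 and KIF23. The widest interval, that of KIF23, reached 1.33-fold. These intervals bound the array values only, and how those relate to the size of a difference in RNA was not tested.

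**Figure D1:**
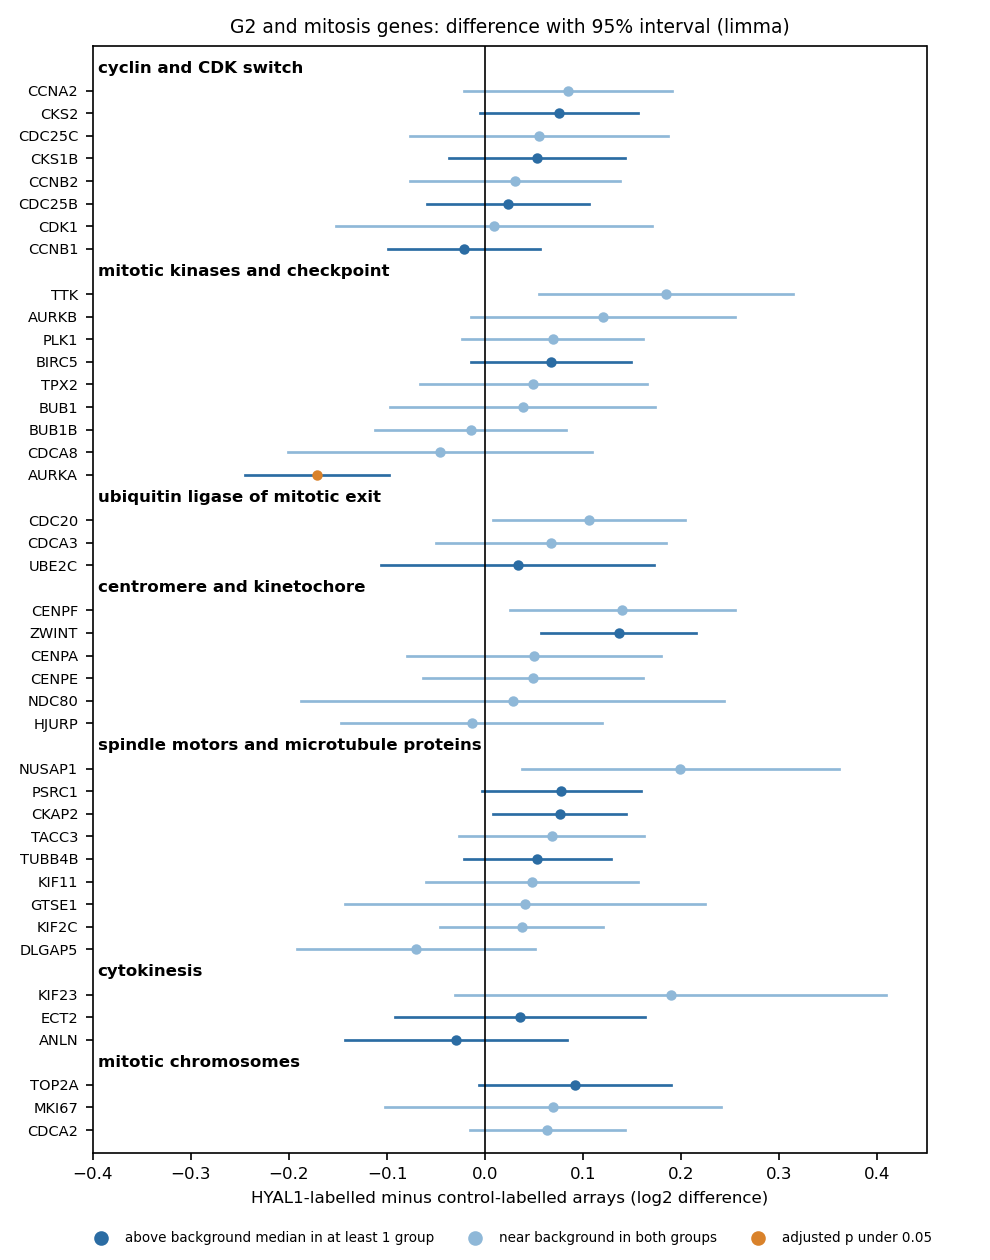
Difference of each of the 41 measured members between HYAL1-labelled and control-labelled arrays on the log2 scale (x axis), by role, with points for the limma estimate, lines for its 95% interval (n = 3 per group) and light colour for members near background in both groups. 34 points lie right of 0, and AURKA, at −0.17, is the single member that passed the test.

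Many of these transcripts were faint. Near background means here that a gene's mean in both groups was under the median level of the array's 9 background probe sets, which was 6.82 on HYAL1-labelled arrays and 6.77 on control-labelled arrays. Because the background probe sets ran from 4.46 to 11.27 with their GC content, this sets no sharp limit. They are named GC17 to GC25, so none of lower GC content is among them, and the median is the GC21 set (6.69 to 6.90). The GC20 set ran from 5.84 to 6.04, so the mark does not show that a transcript was absent. By this rule 27 of 41 members were near background, among them CDK1, CCNA2, PLK1, AURKB and MKI67, against 6404 of 15277 over all genes. The other 14 members were CCNB1, CDC25B, CKS1B, CKS2, AURKA, BIRC5, UBE2C, ZWINT, CKAP2, PSRC1, TUBB4B, ECT2, ANLN and TOP2A. The median difference was 0.05 for the 27 members near background, of which 23 were higher in the HYAL1-labelled arrays, and also 0.05 for the other 14, of which 11 were higher there. Over all genes the medians were 0.02 near background and 0.01 above it. The 9 background probe sets, which match no human transcript, also all read higher on HYAL1-labelled arrays (range 0.02 to 0.14, median 0.06), 1 of them without overlap. Their shift was as large as the median shift of the members, and its part in that shift was not tested.

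**Figure D2:**
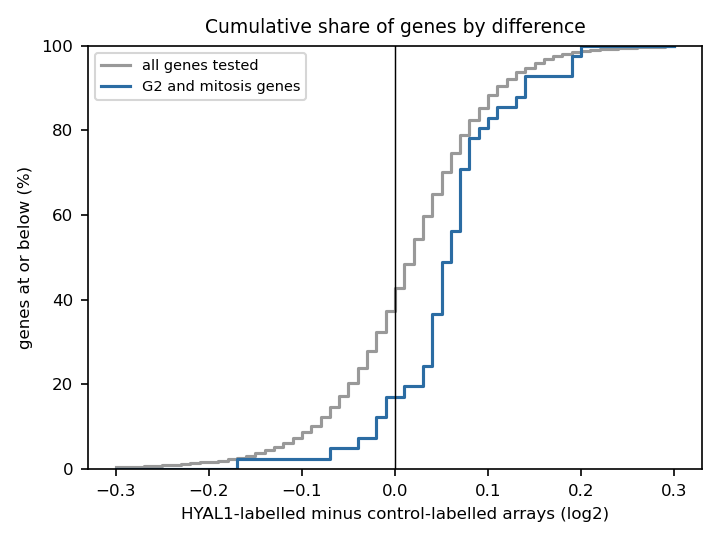
Share of genes (y axis, percent) at or below each difference between HYAL1-labelled and control-labelled arrays (x axis, log2), for the 41 members and for all 15277 genes tested. The curve of the members lies to the right of that of all genes over most of the range, with medians of 0.05 and 0.01.

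The arrays did not share the lean equally. After each member was centred on its own mean, the median member stood at 0.0230, 0.00637 and 0.0496 in HYAL1-labelled replicates 1 to 3 and at −0.0568, −0.0203 and −0.00957 in the control-labelled replicates. HYAL1-labelled replicate 3 held the highest value of 15 members, and control-labelled replicates 1 and 2 held the lowest value of 15 and 13. The groups did not overlap in this median, although HYAL1-labelled replicate 2 and control-labelled replicate 3 lay close to each other. The medians of the background probe sets were 6.90, 6.78 and 6.79 on HYAL1-labelled arrays and 6.69, 6.89 and 6.71 on control-labelled arrays. Control-labelled replicate 1, lowest for the members, was also lowest for background, whereas control-labelled replicate 2 had a background as high as HYAL1-labelled replicate 1. Without any single array the median difference stayed between 0.05 and 0.07.

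**Figure D3:**
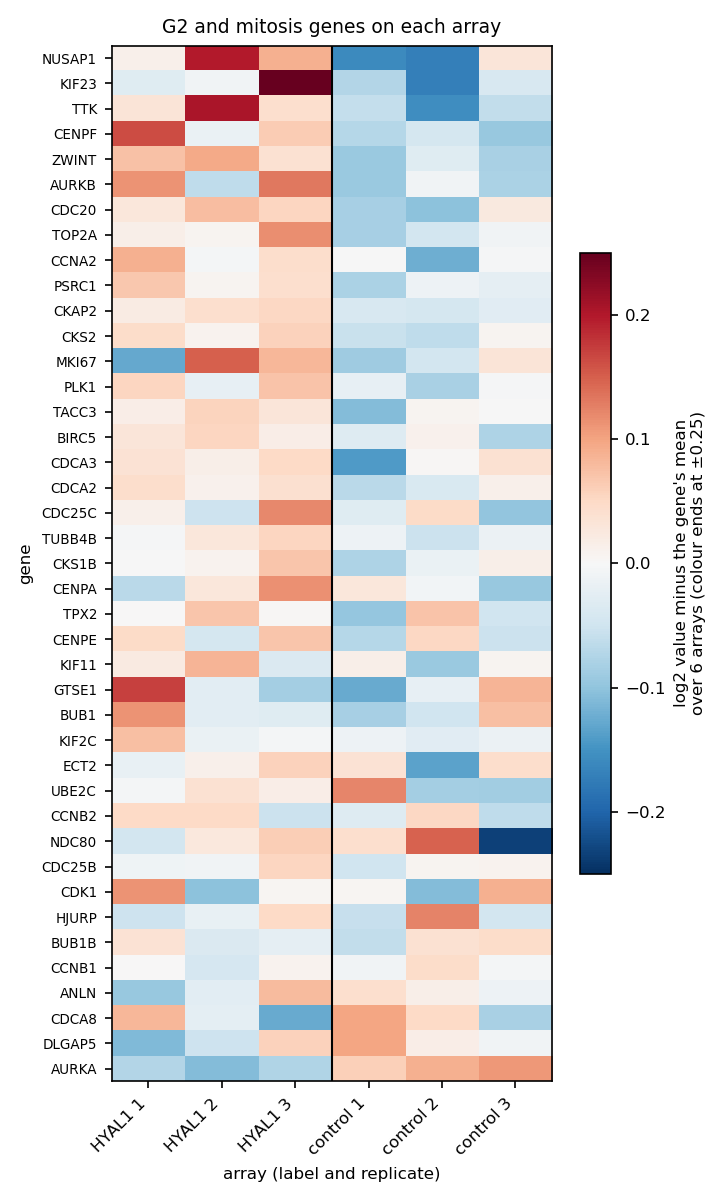
Value of each member (rows, ordered by difference) on each of the 6 arrays (columns), as log2 value minus the gene's mean over the arrays, on a colour scale that ends at 0.25 either way. Members above their own mean numbered 28, 22 and 33 in HYAL1-labelled replicates 1 to 3 and 10, 16 and 15 in the control-labelled replicates. AURKA in the bottom row runs the other way.

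Promoters are shown for the 5 members that had an unadjusted p under 0.05 and a matched promoter, because shared promoter motifs are a well known feature of G2 and mitosis genes. RefSeq promoters (GRCh38.p14) of 300 bases, 250 of them before the transcription start, were matched by symbol for 37 of the 43 members, in 47 windows, and compared with all 35116 windows. The CHR letters TTTGAA, on either strand, were in 31 of 47 member windows (66.0%), against 15.2% of all windows, and TTTGAA or TTCGAA in 34 (72.3%) against 16.4%. CCAAT, on either strand, was in 34 (72.3%) against 34.6%. Both kinds of letters were in 29 windows (61.7%) against 6.38%. The motifs do not overlap each other, and a match of letters is a description, not a bound site. In each line are the 250 bases before the start, with TTTGAA and CCAAT (or, on the other strand, TTCAAA and ATTGG) in capitals, for CDC20 (chr1:43358731-43358980, plus strand), ZWINT (chr10:56361260-56361509, minus strand), CENPF (chr1:214602945-214603194, plus strand), NUSAP1 (chr15:41332631-41332880, plus strand) and CKAP2 (chr13:52455738-52455987, plus strand).
CDC20: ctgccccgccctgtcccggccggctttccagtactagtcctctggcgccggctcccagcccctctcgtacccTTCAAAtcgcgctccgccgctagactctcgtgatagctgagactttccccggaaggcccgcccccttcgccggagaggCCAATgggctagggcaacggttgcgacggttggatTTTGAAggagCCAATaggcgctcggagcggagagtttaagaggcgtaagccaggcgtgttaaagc
ZWINT: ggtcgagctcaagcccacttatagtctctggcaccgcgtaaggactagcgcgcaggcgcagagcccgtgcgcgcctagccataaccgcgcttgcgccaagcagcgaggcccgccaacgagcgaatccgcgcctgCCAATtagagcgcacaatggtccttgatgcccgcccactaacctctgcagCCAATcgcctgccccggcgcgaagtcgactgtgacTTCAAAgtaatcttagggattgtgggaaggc
CENPF: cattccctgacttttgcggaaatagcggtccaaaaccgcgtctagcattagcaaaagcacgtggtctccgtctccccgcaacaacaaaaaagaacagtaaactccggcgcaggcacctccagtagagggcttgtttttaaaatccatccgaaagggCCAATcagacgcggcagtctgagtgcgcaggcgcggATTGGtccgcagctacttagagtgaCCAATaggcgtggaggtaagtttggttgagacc
NUSAP1: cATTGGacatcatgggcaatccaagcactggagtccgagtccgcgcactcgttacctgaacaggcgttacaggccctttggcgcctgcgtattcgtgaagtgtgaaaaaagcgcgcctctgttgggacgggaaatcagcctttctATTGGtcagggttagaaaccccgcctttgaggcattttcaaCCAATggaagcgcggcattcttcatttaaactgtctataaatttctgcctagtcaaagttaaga
CKAP2: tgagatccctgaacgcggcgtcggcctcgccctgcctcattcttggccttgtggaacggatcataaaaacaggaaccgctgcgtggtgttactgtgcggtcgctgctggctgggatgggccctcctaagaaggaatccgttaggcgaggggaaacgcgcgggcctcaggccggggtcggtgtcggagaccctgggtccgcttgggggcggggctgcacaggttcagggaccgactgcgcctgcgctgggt
CDC20 has CHR letters that begin 178 and 65 bases before the start, the nearer ones beside a CCAAT box at 55. In ZWINT they begin at 31, with CCAAT at 116 and 66. CENPF and NUSAP1 each have 3 CCAAT boxes in the stretch shown and TTTGAA after the start, outside it. CKAP2 has none of these letters before the start. By these letters, the median expression difference was 0.05 for the 28 measured members with CHR letters, 0.07 for the 7 without and 0.06 for the 6 members not matched to a promoter, which are AURKA, TTK, BIRC5, TPX2, UBE2C and CDCA2.

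None of the 8 genes of the cyclin and CDK switch passed the test, and 7 were higher in the HYAL1-labelled arrays, with a median of 0.04. CDK1, the kinase that drives entry into mitosis, read 5.92, 5.71 and 5.81 on HYAL1-labelled arrays and 5.81, 5.70 and 5.90 on control-labelled arrays. The groups of CDK1 overlapped fully, with a difference of 0.01. Its partner CCNB1 (cyclin B1), well above background, read 8.02, 7.98 and 8.03 against 8.01, 8.07 and 8.02, a difference of −0.02 with overlapping values. CCNA2 (cyclin A2, of S phase and G2) differed by 0.08 and CCNB2 by 0.03. The phosphatases that free CDK1 from its inhibitory phosphates, CDC25B and CDC25C, differed by 0.02 and 0.05. Of the small subunits that bind CDKs, CKS2 read 8.96, 8.92 and 8.97 on HYAL1-labelled arrays and 8.86, 8.85 and 8.92 on control-labelled arrays. Its groups did not overlap, but only narrowly, and the difference of 0.08 (SE 0.0343) did not pass (adjusted p = 0.318). CKS1B differed by 0.05.

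Among the mitotic kinases and checkpoint genes, AURKA and TTK lay at opposite ends. AURKA, the kinase that matures centrosomes and builds the spindle poles, read 9.61, 9.58 and 9.61 on HYAL1-labelled arrays and 9.74, 9.78 and 9.79 on control-labelled arrays. All control-labelled values were higher, and each group was tight. The control-labelled arrays were higher by 0.17 (SE 0.0311), or 1.13-fold, with an adjusted p = 0.0493, just inside the threshold. With a prior variance that varies with mean level the adjusted p was 0.000989, under which calls were 3.89% of all genes on the control-labelled and 2.81% on the HYAL1-labelled side, and AURKA was again the only member called. Its call was lost with a test that shares no variance between genes (adjusted p = 0.0691), with a replicate block (0.131), with the same model fitted over all probe sets (0.0583) and without any 1 of the 6 arrays (0.0881 to 0.196).

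A further probe set, not used because it also matches the pseudogene AURKAP1 and RAB3GAP2, read 8.69, 8.75 and 8.77 on HYAL1-labelled arrays and 9.03, 8.81 and 8.98 on control-labelled arrays. It stood higher in the control-labelled arrays too, without overlap, by 0.20 (SE 0.0595, adjusted p = 0.155 over all probe sets). With the prior variance that varies with mean level its adjusted p was 0.0190. TPX2, which activates Aurora A kinase on the spindle, read 6.19, 6.26 and 6.19 against 6.09, 6.26 and 6.14, with overlapping values and a difference of 0.05.

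TTK, the MPS1 kinase that starts the spindle checkpoint, was near background and read 4.14, 4.31 and 4.15 on HYAL1-labelled arrays and 4.05, 3.96 and 4.05 on control-labelled arrays. The groups did not overlap, with HYAL1-labelled replicate 2 well above the rest. The difference of 0.18 (SE 0.0551) did not pass (adjusted p = 0.158). The checkpoint kinases BUB1 and BUB1B, also near background, differed by 0.04 and −0.01. PLK1, which acts at centrosomes and kinetochores, differed by 0.07 with overlapping values. Of the chromosomal passenger complex, which corrects faulty microtubule attachments, AURKB differed by 0.12 with overlap (6.23, 6.05 and 6.25 against 6.03, 6.11 and 6.04) and CDCA8 (borealin) by −0.05. BIRC5 (survivin), of the same complex, read 7.53, 7.55 and 7.52 against 7.47, 7.51 and 7.42. Its groups were barely apart and its difference was 0.07 (adjusted p = 0.370).

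**Figure D4:**
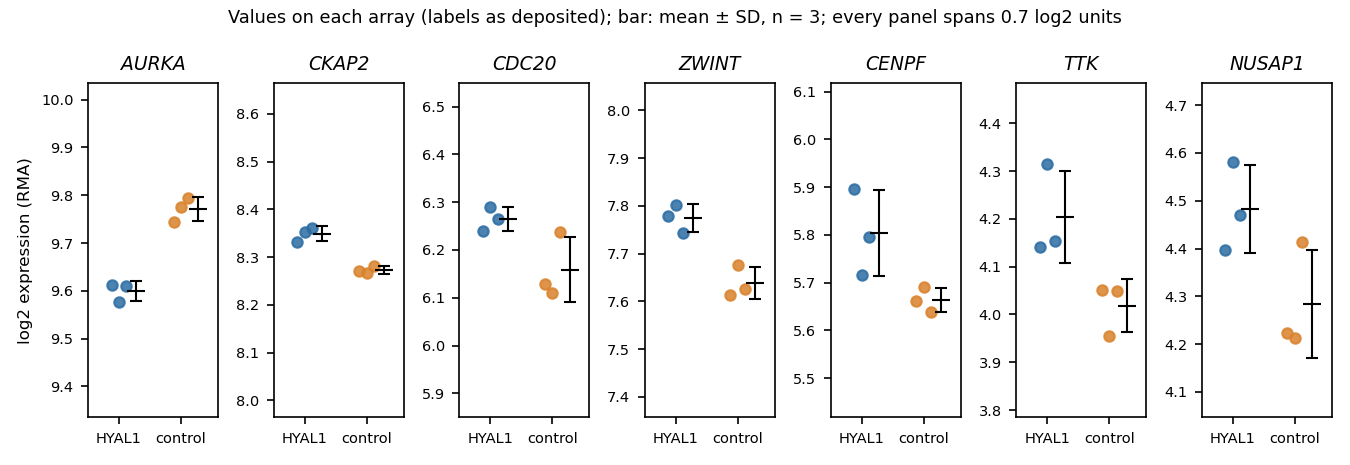
Log2 values on each array (y axis) of the 7 members with an unadjusted limma p under 0.05, by label (x axis), with means ± SD (n = 3). Every panel spans the same range of the log2 scale, and AURKA is the only member of the 7 with lower values in the HYAL1-labelled arrays (9.60 against 9.77).

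The next group held 3 genes, of which CDC20 and UBE2C act with the ubiquitin ligase of mitotic exit, and none passed. CDC20, which recruits the targets of the anaphase-promoting complex, read 6.24, 6.29 and 6.27 on HYAL1-labelled arrays and 6.13, 6.11 and 6.24 on control-labelled arrays. The groups only just avoided overlap, since control-labelled replicate 3 nearly met HYAL1-labelled replicate 1. The difference was 0.11 (SE 0.0418, adjusted p = 0.254), near background, and the other probe sets of CDC20 lay on the same side, by 0.15 and 0.28. UBE2C, the enzyme that loads ubiquitin for this ligase, differed by 0.03, with control-labelled replicate 1 (7.30) above every other array. CDCA3, placed in this group but a regulator of mitotic entry, differed by 0.07 with overlap.

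At the centromere and kinetochore 5 of 6 measured genes were higher in the HYAL1-labelled arrays, with a median of 0.05, and none passed. ZWINT, which anchors checkpoint proteins at the outer kinetochore, read 7.78, 7.80 and 7.74 on HYAL1-labelled arrays and 7.61, 7.68 and 7.63 on control-labelled arrays. The groups were clearly apart, above background, with a difference of 0.14 (SE 0.0338, adjusted p = 0.108). Its dimmer probe set read 5.91, 5.89 and 6.02 against 5.72, 5.72 and 5.67, again without overlap and by 0.24. ZWINT was the member that came nearest to the threshold on the HYAL1-labelled side, and it passed with probe sets averaged (adjusted p = 0.0268), with the probe set of lowest p (0.0319), without the genes of lowest mean (0.0417) and with the robust trend (0.0470).

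CENPF, a large protein of the outer kinetochore in G2 and mitosis, read 5.90, 5.72 and 5.80 on HYAL1-labelled arrays and 5.66, 5.69 and 5.64 on control-labelled arrays. The groups did not overlap, near background, and the HYAL1-labelled values were the more scattered. The difference was 0.14 (SE 0.0488, adjusted p = 0.212), and 0.24 for the other probe set. Without HYAL1-labelled replicate 1, the highest array, it was 0.09. The centromeric histone CENPA and its chaperone HJURP differed by 0.05 and −0.01, the kinetochore motor CENPE by 0.05, and NDC80, which binds microtubules, by 0.03. Control-labelled NDC80 was among the noisiest members, at 4.24, 4.35 and 3.97.

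Among the spindle motors and microtubule proteins 8 of 9 genes were higher in the HYAL1-labelled arrays, with a median of 0.05, and none passed. CKAP2, a microtubule protein of the spindle, read 8.33, 8.35 and 8.36 on HYAL1-labelled arrays and 8.27, 8.27 and 8.28 on control-labelled arrays. Every HYAL1-labelled value was higher, with little scatter in either group, and the difference of 0.08 (SE 0.0289) had an adjusted p = 0.239. All 5 probe sets of CKAP2 lay on that side, by 0.08 to 0.13. NUSAP1, which bundles spindle microtubules, read 4.40, 4.58 and 4.47 against 4.22, 4.21 and 4.41, near background. Control-labelled replicate 3 overlapped the HYAL1-labelled group, and the difference of 0.20 (SE 0.0688, adjusted p = 0.208) turned with the choice of probe set, since the faintest gave 0.14 in favour of the control-labelled arrays.

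The motors KIF11, which pushes the spindle poles apart, and KIF2C, which depolymerises microtubules, differed by 0.05 and 0.04. Without overlap but without passing, PSRC1 differed by 0.08, TACC3, which stabilises kinetochore fibres, by 0.07 and the β-tubulin TUBB4B by 0.05. TACC3 was near background, and its 6 probe sets lay on both sides. GTSE1, a microtubule protein expressed in G2, differed by 0.04. DLGAP5, which stabilises microtubules near chromosomes, was the sole member of this group on the control-labelled side, by 0.07 (adjusted p = 0.533), and its values overlapped.

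In cytokinesis, KIF23, a motor of the central spindle, read 6.19, 6.21 and 6.54 on HYAL1-labelled arrays and 6.14, 6.05 and 6.18 on control-labelled arrays. HYAL1-labelled replicate 3 carried most of its difference of 0.19 (SE 0.0935, adjusted p = 0.352), and the other HYAL1-labelled values were close to the control-labelled ones. KIF23 was near background in both groups. ECT2, which activates RhoA at the cleavage furrow, and ANLN, which links the contractile ring to the membrane, differed by 0.04 and −0.03 with overlap.

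On the mitotic chromosomes, the proliferation marker TOP2A, a topoisomerase that untangles sister DNA, read 7.29, 7.28 and 7.39 on HYAL1-labelled arrays and 7.20, 7.23 and 7.27 on control-labelled arrays. The groups nearly met but did not overlap, and the difference of 0.09 (SE 0.0415) did not pass (adjusted p = 0.315). MKI67, the antigen Ki-67 that coats mitotic chromosomes, read 5.51, 5.78 and 5.72 against 5.54, 5.59 and 5.67. Its values overlapped, with a difference of 0.07 (SE 0.0729, adjusted p = 0.676) no larger than its error. CDCA2, which targets a phosphatase to chromatin at mitotic exit, differed by 0.06 with overlap.

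Several members were read by more than 1 probe set, which gives a second look at the same RNA rather than a further replicate. The 41 members had 95 probe sets, of which 73 (76.8%) were higher in the HYAL1-labelled arrays, against 55.7% of all 39341 probe sets, with a median difference of 0.05. At an unadjusted p under 0.05 there were 14 on that side (14.7%, against 8.82% of all probe sets) and 2 on the other (2.11% against 8.28%). Of the 24 genes with several probe sets, 12 had all of them on the HYAL1-labelled side, DLGAP5 had both on the control-labelled side, and 11 had them on both sides. The spread between probe sets of a gene had a median of 0.09 and reached 0.34 for NUSAP1, so it was as large as the differences themselves. Fitted over all probe sets of the array, 0 of the 95 passed without a trend in the prior variance, where 0.346% of all probe sets passed on the HYAL1-labelled and 1.08% on the control-labelled side. With the trend, 2 passed on the HYAL1-labelled side (2.11%, against 2.52% of all probe sets), those of ZWINT (the dimmer one, adjusted p = 0.0283) and CKAP2 (1 of 5, adjusted p = 0.0422), and that of AURKA on the other (1.05% against 3.93%). Of the probe sets used, 9 are of a kind that may match several transcripts and 2, those of DLGAP5 and TUBB4B, of a kind that may cross-hybridise.

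Around the members, 6 lists of other genes of the programme held 122 genes, of which 114 were measured. None passed the test (lowest adjusted p = 0.0661), and at an unadjusted p under 0.05 there were 9 on the HYAL1-labelled side (7.89%, against 9.69% of all genes) and 8 on the control-labelled side (7.02% against 7.72%). Their median difference was 0.02, against 0.05 for the members and 0.01 for all genes. The regulators of mitotic transcription had a median of 0.00 over 13 genes. FOXM1, the forkhead factor that activates these genes, was nearest to passing, at 5.81 ± 0.0409 (SD, n = 3) on HYAL1-labelled arrays and 5.63 ± 0.0339 (SD, n = 3) on control-labelled arrays. The difference of 0.18 (SE 0.0360, adjusted p = 0.0661) was without overlap but near background. Of the MuvB complex, RBBP4 was higher by 0.11 (adjusted p = 0.160) and LIN54, which binds CHR letters, lower by 0.12 (adjusted p = 0.145) in the HYAL1-labelled arrays, and MYBL2 (B-MYB) differed by −0.03. LIN54 and MYBL2 were near background.

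The controls of mitotic entry had a median of −0.05 over 14 genes. CHEK1, the checkpoint kinase that restrains entry after DNA damage, was at 7.87 ± 0.0279 (SD, n = 3) on HYAL1-labelled arrays and 7.72 ± 0.0225 (SD, n = 3) on control-labelled arrays, 0.16 apart (adjusted p = 0.0661). WEE1, which holds CDK1 inactive, went the other way by −0.12 (adjusted p = 0.122), as did the phosphatase CDC25A, near background, by −0.12 (adjusted p = 0.275). With a prior variance that varies with mean level, 2 of the 114 genes passed on each side (1.75%, against 2.81% of all genes on the HYAL1-labelled and 3.89% on the control-labelled side): CHEK1 (adjusted p = 0.0226) and RBBP4 (0.0267) higher in the HYAL1-labelled arrays, WEE1 (0.0292) and UBE2S (0.0471) higher in the control-labelled arrays. UBE2S extends ubiquitin chains for the anaphase-promoting complex.

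For the anaphase-promoting complex, its inhibitors and separase the median was −0.02 over 22 genes. Without overlap, 8 of the 22 were higher in the control-labelled arrays, against 10.3% of all genes, and 2 of the 22 (9.09%) in the HYAL1-labelled arrays, against 14.1%. On each side only 1 of the 22 had an unadjusted limma p under 0.05. Over all 6 lists, 13 of 114 genes were without overlap on each side. UBE2S differed by −0.10 (adjusted p = 0.223), and ANAPC4, a subunit, went the other way by 0.12 (adjusted p = 0.186). Condensin and cohesin, which compact and hold sister chromatids, had a median of 0.05 over 18 genes, with 13 higher in the HYAL1-labelled arrays, among them SMC4 by 0.13 (adjusted p = 0.255) and NCAPD2 by 0.12 (adjusted p = 0.230). The other kinetochore genes had a median of 0.01 over 28 genes, with CENPQ (0.15) and MIS18A (0.11) on the HYAL1-labelled and CENPC (−0.13) on the control-labelled side. The other spindle and cytokinesis genes had a median of 0.02 over 19 genes, of which ASPM, a spindle pole protein, differed by −0.21 (adjusted p = 0.255) with overlapping values. Of the genes named in this paragraph, NCAPD2, CENPQ, MIS18A, CENPC and ASPM were near background.

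**Figure D5:**
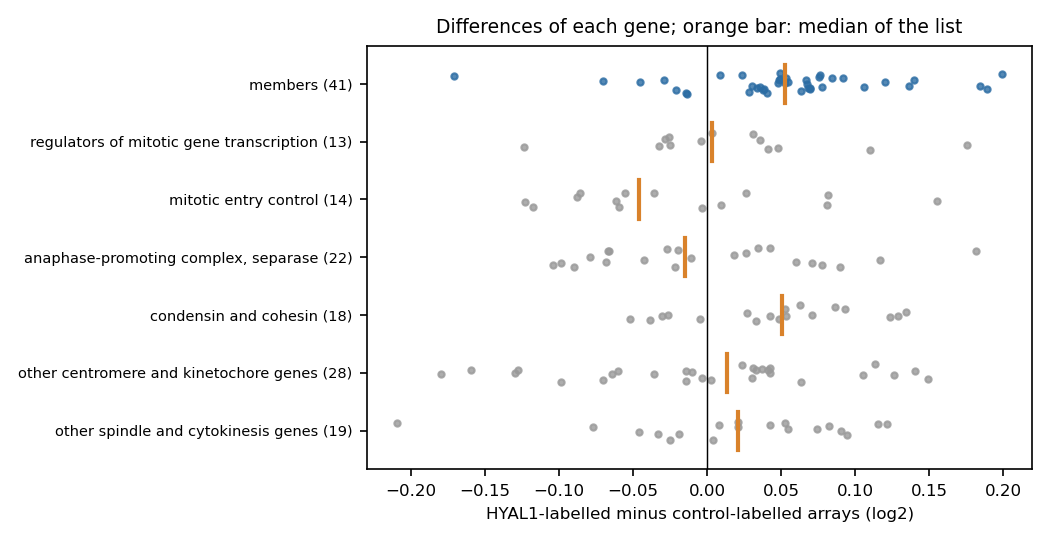
Difference between HYAL1-labelled and control-labelled arrays (x axis, log2) of each gene (points) of the members and of 6 lists of other G2 and mitosis genes (rows, number measured in brackets), with the median of each list as an orange bar. The medians run from −0.05 for mitotic entry control to 0.05 for the members and for condensin and cohesin.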

How the data were processed

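RNA of HFL-1 cells was measured on 6 PrimeView arrays, 3 per label. The authors deposited log2 expression values made with RMA, which corrects background, normalizes by quantiles and summarises probes. The submitters' processing notes give Affymetrix Power Tools and RMA as the tools, whose versions are not given in the sources used here. Of 39341 probe sets, 36097 have 1 gene symbol in the annotation used, 1397 several, 1847 none, and 73 are array controls. Each gene took its single-symbol probe set of highest mean, giving 15277 genes. HYAL1 has no symbol there, and its probe set was found by the values of the study's table of changed genes, whose fold changes and p-values were not used. The test was limma 3.58.1 under R 4.3.3 (empirical Bayes with 1 prior variance on 3.25 prior degrees of freedom), with p adjusted by Benjamini-Hochberg across the gene table and called under 0.05, after a test on simulated data. Members and lists were chosen with earlier results of these data known. Members were described on every array where the unadjusted p was under 0.05, or the adjusted p with the trend, and further ones, chosen after their values were seen, to show arrays of central genes. Of the other lists, up to 3 genes each of lowest unadjusted p under 0.05 were named, with MYBL2 added. The number of arrays limits the precision. Promoters were read with Python 3.11.15 and pandas 2.3.3, and figures drawn with matplotlib 3.10.9. The alternatives were other probe set rules, a filter on the 30% of genes of lowest mean, renewed normalization, median centring, trend and robust trend, array weights, an unpaired t-test, the replicate number as a block and each array left out.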

Additional observations from a re-analysis of the deposited data

How the results depend on the processing

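The member called on the control-labelled side, AURKA, was 1 under 9 alternatives and 0 with the unpaired t-test, with the replicate block, with the model fitted over all probe sets without a trend (an alternative chosen after seeing the data) and without each array (lowest and highest 0). Its adjusted p ran from 0.000826 to 0.131 over 12 alternatives, and its difference, control-labelled minus HYAL1-labelled, from 0.16 to 0.18 with an array left out. On the HYAL1-labelled side the count went from 0 to 1, ZWINT, with probe sets averaged, with the probe set of lowest p, without the 30% of genes of lowest mean (23 members left) and with the robust trend, and it was 0 without each array. Members without overlap on the control-labelled side went from 1 to 3 with the probe set of lowest p and ran from 1 to 3 with an array left out: the count was 3 when HYAL1-labelled replicate 3 was left out and 2 when control-labelled replicate 1 was. On the HYAL1-labelled side they ran from 13 to 17 (31.7% to 41.5%) with an array left out, against 12, while the share of all genes rose from 14.1% to between 18.7% and 21.1%, since fewer arrays overlap less often. NUSAP1 reversed with the probe set of lowest p, and was then higher on control-labelled arrays by 0.14 (adjusted p = 0.122). Of the 6 other lists, 2 genes passed on each side with the trend and 2 with the robust trend, against 0 and 0. The cause of these changes was not tested. The median difference of the members kept its sign under all its alternatives. HYAL1 passed in each of the 16 run for it, which did not include averaged probe sets or the probe set of lowest p.

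Arrays with the same replicate number correlated at 0.06, −0.02 and 0.24 in their deviations, so the numbers were not shown to pair the samples, and the replicate block (1 gene called over all genes, against 253) changed no other call of the members or the other lists. Over all genes, calls were 1024 with the trend, 90 with the t-test and 15 to 52 with an array left out. Of the members, 27 of 41 were near background, against 6404 of 15277 over all genes. Over all genes near background, 26 of 6404 passed on the HYAL1-labelled and 17 on the control-labelled side.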

Other observations

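Some members gave opposite signs from probe sets of the same gene. BIRC5 was read by 10 probe sets, whose differences (HYAL1-labelled minus control-labelled) ran from −0.13 to 0.12, with the brightest at 0.07. The brighter probe set of KIF23 differed by 0.19 and the dimmer by −0.08, and in the dimmer one HYAL1-labelled replicate 3, which stood apart in the brighter one, read 5.93 among 5.86 and 5.92. TOP2A had differences of 0.09, −0.05 and 0.11 in its 3 probe sets. No value for KIF23, TOP2A or BIRC5 passed the test in any of these probe sets.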
